A study of Mus musculus with 12 samples.

Results

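The response of the mouse brain to a transient block of its blood supply was read by comparing Vehicle mice with Sham mice. These are 8 of the 12 mice of the series, 4 in each group, chosen by their labelled treatment. All were adult male C57BL/6J mice of 1 batch label. Vehicle mice had tMCAO, in which a filament closes the middle cerebral artery for a short time before blood flow returns. Sham mice had sham surgery. Mice of both groups were given saline by mouth on the same schedule, before surgery and after it. The other 4 mice had tMCAO and were given Laminaria japonica polysaccharide (LJP), and they shared the filter on low counts, the scaling and the estimate of spread but were not compared. Poly(A) RNA of the ischemic hemisphere was sequenced, so tissue inside and outside the territory of the artery was mixed. The time after reperfusion at which the sequenced tissue was taken is not given in the sources used here.

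The middle cerebral artery feeds the striatum and much of the cortex. When flow stops, neurons lose the energy that holds their ion gradients, and many die in the core of the lesion. In the hours and days that follow, astrocytes become reactive, microglia take up debris, vessels bind and admit blood leukocytes, and a scar of glia and matrix forms at the rim.

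Each library held between 18024359 and 22216315 counts, and 17558 of the 39756 listed genes had enough counts for the test. Levels are given as CPM, the count of a gene scaled to a fixed total per library, for mice 1 to 4 of a group in that order, and log2 fold changes as Vehicle minus Sham ± the standard error. A gene was called higher or lower at an adjusted p below 0.05 (edgeR, Benjamini-Hochberg over all genes tested). The hemispheres carried the markers of brain tissue, with the synaptic gene Snap25 between 932 and 1987 CPM in all 8 mice.

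The Vehicle mice differed from each other far more than the Sham mice did. The median SD of log2 CPM over genes was 0.12 in Sham and 0.306 in Vehicle. On the first principal component, which held 71.1% of the variance, the Sham mice lay between -57.5 and -52.8, and Vehicle mice 1 to 4 lay at 68.9, 112.5, 12.5 and 26.3. Vehicle mouse 2 stood farthest from Sham and Vehicle mouse 3 nearest, so values without mouse 2 are given beside results that leaving it out moved most.

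In all, 3982 genes were higher in Vehicle (22.7% of those tested) and 3032 were lower (17.3%), with a median log2 fold change over all genes tested of 0.00. The counts of each gene list are to be read against 22.7% and 17.3%. The rises were larger than the falls. Among called genes the median was 1.0 for those that rose and -0.54 for those that fell, and past a log2 size of 1 there were 1979 higher genes (11.3%) but 379 lower ones (2.16%). Past a log2 size of 0.58 with an unadjusted p below 0.01 there were 2685 higher genes (15.3%) and 1122 lower genes (6.39%). Every Vehicle mouse was above every Sham mouse in 3633 genes (20.7%) and below in 3309 (18.8%). With scaling by library size alone, which moved the median of all genes by 0.077, the split was 4737 higher to 2299 lower. In the fit of the Sham and Vehicle mice alone it was 3253 higher to 1981 lower.

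**Figure D1:**
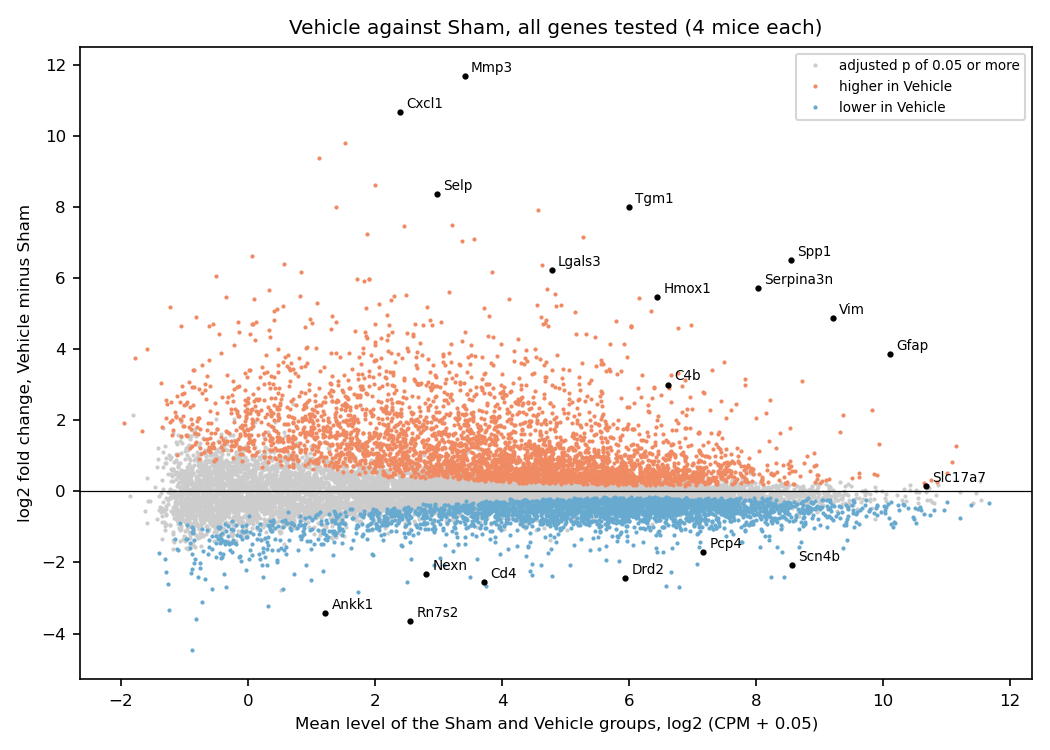
Each point is 1 of the 17558 genes tested, with the mean level of the Sham and Vehicle groups on the x axis (log2 of CPM + 0.05) and the fitted log2 fold change, Vehicle minus Sham, on the y axis. The 3982 higher genes reach much larger sizes than the 3032 lower genes, and for genes absent from Sham, such as Mmp3 and Cxcl1, the fitted size depends on the prior count and is no bound.

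Among the large rises, the smallest p belonged to C4b. C4b (GRCm38, chr17:34728139-34743902), a complement component, was at 21.3, 24.1, 21.3 and 20 CPM in Sham and at 152, 205, 174 and 165 CPM in Vehicle. Its log2 fold change was 3.00 ± 0.14 (adjusted p = 5.65e-07), and the groups were far apart. Its near copy C4a was at a mean of 1.17 CPM in Sham and 1.44 CPM in Vehicle (adjusted p = 0.398), and reads shared by the copies could be counted for either. Tgm1, a transglutaminase that cross-links proteins, rose from 0.404, 0.272, 0.548 and 0.726 CPM to 217, 153, 51.7 and 86.3 CPM (8.0 ± 0.54, adjusted p = 1.54e-05). Dhrs1, a short-chain dehydrogenase, lies near Tgm1 on chromosome 14 and was at 41.9, 45.4, 46.3 and 47.8 CPM in Sham against 187, 198, 137 and 171 CPM in Vehicle (1.93 ± 0.13, adjusted p = 1.54e-05). No Vehicle mouse overlapped Sham in C4b, Tgm1 or Dhrs1.

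The pattern recognition receptor Tlr2 was nearly the same in all 4 Vehicle mice, at 12.7, 13.4, 12.1 and 11 CPM, against 0.577, 0.981, 0.603 and 0.57 CPM in Sham (4.16 ± 0.30, adjusted p = 1.54e-05). Ncf1, a subunit of the phagocyte NADPH oxidase, rose by 2.64 ± 0.23. The actin cross-linker Flnc rose by 4.80 ± 0.41 and the actin-bound LIM protein Pdlim4 by 2.17 ± 0.18 (adjusted p = 4.65e-05 for each of the 3 genes).

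Several of the genes with the smallest p among the large falls are known from striatal neurons. Nexn (chr3:152236982-152266350), an actin-binding protein, was at 13.4, 11.3, 10.3 and 11.3 CPM in Sham and at 2.13, 2.45, 2.85 and 1.72 CPM in Vehicle (-2.34 ± 0.23, adjusted p = 8.24e-05). Pcp4, a regulator of calmodulin, fell from 231, 212, 209 and 222 CPM to 62.8, 46.1, 80 and 79.9 CPM (-1.70 ± 0.17, adjusted p = 8.96e-05). Gabra4, a subunit of the GABA-A receptor that overlaps Gabrb1 in the annotation, fell from 98.3, 93.3, 93 and 97 CPM to 39.4, 32.9, 50.1 and 49.5 CPM (-1.15 ± 0.12, adjusted p = 0.000108). In all of them the 4 Vehicle mice lay close together, well under Sham.

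Dgkb (diacylglycerol kinase beta), Strn (striatin), Rasgrp2 (an activator of Rap) and Pde1b (a calmodulin-dependent phosphodiesterase) had log2 fold changes of -1.57 ± 0.17, -1.12 ± 0.13, -1.95 ± 0.24 and -1.56 ± 0.20. Ano3, Dach1 and Ido1 were at -1.58 ± 0.19, -1.75 ± 0.21 and -2.49 ± 0.31, with adjusted p between 0.000122 and 0.000222 for these genes. Among the largest falls, Ankk1, which lies beside the dopamine receptor gene Drd2 on chromosome 9, went from 3.81, 5.34, 3.62 and 3.84 CPM to 0, 0.0859, 0.7 and 0.808 CPM (-3.43 ± 0.69, adjusted p = 0.00276). Fgf3 fell by 2.75 ± 0.44 on the log2 scale. The near-identical 7SL RNA genes Rn7s2 and Rn7s1, which code for the RNA of the signal recognition particle, were at -3.64 ± 0.57 and -2.83 ± 0.56, and their reads may be split between the copies. How fully libraries of poly(A) RNA hold this RNA was not tested.

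The start-site regions of the first higher and lower genes that had a window in the RefSeq promoter table are shown because these genes changed most firmly. Each is the 250 bases before the start site in build GRCm38.p6, 5′ to 3′ on the strand of the gene, with capitals for matches to any of 3 motifs searched on both strands. These were the AP-1 motif TGANTCA, the STAT motif TTCNNNGAA (GAS) and the heat shock motif GAANNTTC, where N is any base.
Tgm1, chr14:55713493-55713742, minus strand: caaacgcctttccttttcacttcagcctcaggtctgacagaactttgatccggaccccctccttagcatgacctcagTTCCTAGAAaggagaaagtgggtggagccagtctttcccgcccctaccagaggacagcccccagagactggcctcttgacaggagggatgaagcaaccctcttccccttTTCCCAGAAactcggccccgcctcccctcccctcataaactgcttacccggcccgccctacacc
Dhrs1, chr14:55745685-55745934, minus strand: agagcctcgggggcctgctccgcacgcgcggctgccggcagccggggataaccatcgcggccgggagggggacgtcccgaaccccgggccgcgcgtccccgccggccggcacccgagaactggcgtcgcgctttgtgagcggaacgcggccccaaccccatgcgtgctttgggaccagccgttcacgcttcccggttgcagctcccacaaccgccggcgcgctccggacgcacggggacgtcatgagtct
Pcp4, chr16:96467356-96467605, plus strand: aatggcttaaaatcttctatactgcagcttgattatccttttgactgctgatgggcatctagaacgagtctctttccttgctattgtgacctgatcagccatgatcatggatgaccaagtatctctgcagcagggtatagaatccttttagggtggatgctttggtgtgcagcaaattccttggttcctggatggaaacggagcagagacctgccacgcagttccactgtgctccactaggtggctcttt
Gabra4, chr5:71658309-71658558, minus strand: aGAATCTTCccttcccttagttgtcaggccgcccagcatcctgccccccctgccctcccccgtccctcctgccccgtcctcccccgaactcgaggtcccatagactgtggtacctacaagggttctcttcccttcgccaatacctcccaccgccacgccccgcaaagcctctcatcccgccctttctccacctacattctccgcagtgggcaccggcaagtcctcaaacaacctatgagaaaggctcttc
The window of Tgm1 held 2 matches to the STAT motif, beginning 173 and 64 bases before the start site, and that of Gabra4 held 1 match to the heat shock motif, beginning 249 bases before it. The windows of Dhrs1 and Pcp4 held no match. Over the 13710 tested genes with a window, the STAT motif was in 5.87% of all windows, in 5.95% of those of higher genes and in 4.91% of those of lower genes. The AP-1 motif was in 4.41%, 5.95% and 3.2%, and the heat shock motif in 5.1%, 5.22% and 4.69%. These letters are a description of the windows and were not tested.

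Cell types were read from 20 lists of marker genes. In a bulk sample, fewer cells of a type and less RNA per cell cannot be told apart.

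**Figure D2:**
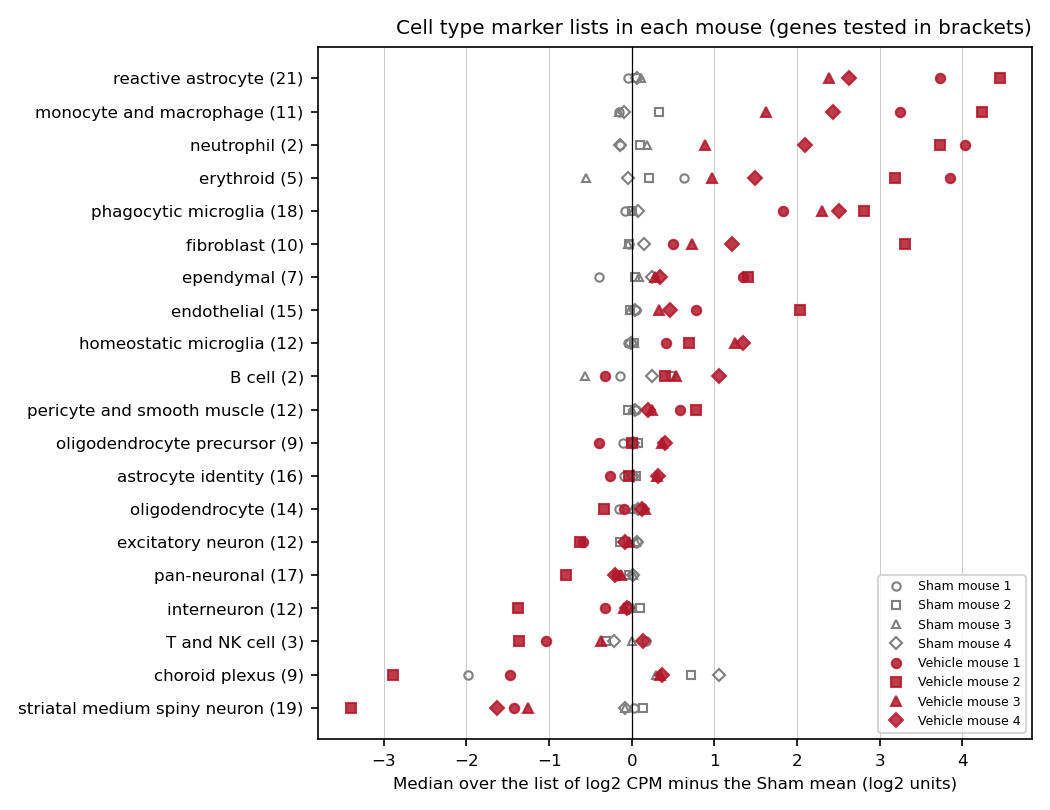
Each row is a marker list with the number of genes tested, and each symbol is 1 mouse, placed at the median over the list of log2 CPM minus the Sham mean. Reactive astrocyte, macrophage and phagocytic microglia markers lie far to the right of Sham in all 4 Vehicle mice, striatal medium spiny neuron markers lie to the left, between -3.40 and -1.26, and choroid plexus markers vary within both groups.

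Striatal medium spiny neurons, the GABA-releasing cells that make up most of the striatum and receive dopamine, had the lowest median of the 4 neuronal lists. Of the 19 markers, 18 were lower in Vehicle (94.7%, against 17.3% of all genes) and none was higher, with a median log2 fold change of -1.63. The same count, 18, was lower without Vehicle mouse 2 (median -1.38). Both output types were touched. Drd1, the dopamine receptor of the direct pathway, was at 83.4, 89.9, 72.9 and 67.3 CPM in Sham and at 31, 2.75, 27.9 and 20.4 CPM in Vehicle (-1.94 ± 0.47, adjusted p = 0.00717). Drd2, the receptor of the indirect pathway, was at 96.1, 120, 98.3 and 98 CPM in Sham and at 21.2, 1.16, 30.5 and 23.7 CPM in Vehicle (-2.44 ± 0.58, adjusted p = 0.00609). All 4 Vehicle mice were under all Sham mice for each, and Vehicle mouse 2 had almost lost both transcripts.

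Ppp1r1b, which codes for DARPP-32, the phosphatase inhibitor that relays dopamine signals, went from 919, 1083, 962 and 1011 CPM to 617, 141, 448 and 334 CPM (-1.37 ± 0.32, adjusted p = 0.0061). The sodium channel subunit Scn4b went from 603, 671, 587 and 580 CPM to 192, 57.8, 181 and 152 CPM (-2.07 ± 0.29, adjusted p = 0.000435). Rarb, a retinoic acid receptor, was at -1.63 ± 0.20. The transcription factor Foxp1 had the most even fall, from 219, 210, 195 and 197 CPM to 119, 119, 108 and 104 CPM (-0.87 ± 0.07, adjusted p = 4.65e-05). The largest fall in the list, picked after the values were seen, was that of the adenosine receptor Adora2a, from 163, 180, 164 and 151 CPM to 28.4, 7.09, 39.1 and 29.4 CPM (-2.67 ± 0.38, adjusted p = 0.000442). The 1 marker that was not called was the opioid peptide precursor Pdyn, at 71.5, 20.1, 55.9 and 40.4 CPM in Vehicle against 68 to 79.4 CPM in Sham (-0.64 ± 0.27, adjusted p = 0.0772).

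The medians of the other neuronal lists lay nearer to 0. Of 17 genes that most neurons use, 7 were lower (41.2%, against 17.3% of all genes) and none was higher (median -0.35, and 8 lower with a median of -0.22 without Vehicle mouse 2). Snap25, a part of the machinery that fuses vesicles, was at 1987, 1682, 1859 and 1822 CPM in Sham and at 1100, 932, 1574 and 1472 CPM in Vehicle (-0.53 ± 0.15, adjusted p = 0.0146). The neurofilament gene Nefl (-0.67 ± 0.13, adjusted p = 0.00267), the calcium sensor Syt1 (-0.60 ± 0.13, adjusted p = 0.00428) and Map2 of the dendrite (-0.63 ± 0.15, adjusted p = 0.00671) were lower too. Rbfox3, which codes for the nuclear protein NeuN, was at 386, 391, 402 and 413 CPM in Sham and at 313, 212, 375 and 346 CPM in Vehicle, under Sham in each mouse but not past the test (-0.35 ± 0.14, adjusted p = 0.0673). It was at -0.22 without Vehicle mouse 2 (adjusted p = 0.0697), and it passed without Vehicle mouse 3 (-0.46, adjusted p = 0.0237).

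Among 12 markers of excitatory cortical and hippocampal neurons, 2 were lower (16.7%, near the 17.3% of all genes) and 1 was higher, with a median of -0.34, or -0.22 without Vehicle mouse 2. The vesicular glutamate transporter Slc17a7 was at 1604, 1361, 1600 and 1637 CPM in Sham and at 1689, 1426, 1885 and 1849 CPM in Vehicle (0.14 ± 0.11, adjusted p = 0.316), and the groups overlapped. The lower genes were the postsynaptic calmodulin-binding gene Nrgn (-0.49 ± 0.11, adjusted p = 0.00445) and the transcription factor Neurod6, at 36.3, 25.2, 30 and 36.8 CPM in Sham and 8.12, 6.23, 23.6 and 23.8 CPM in Vehicle (-1.06 ± 0.36, adjusted p = 0.0313). Neurod6 missed the threshold without Sham mouse 1, 3 or 4 or Vehicle mouse 1, at adjusted p between 0.0559 and 0.0777. It also missed it in the edgeR fit of the Sham and Vehicle mice alone (adjusted p = 0.0818). Fezf2, a factor of deep-layer neurons, was higher (0.46 ± 0.16, adjusted p = 0.043) and missed the threshold without any of Sham mice 1, 2 and 4 or Vehicle mice 1, 2 and 4, at adjusted p between 0.055 and 0.111. Fezf2 also missed it in the edgeR fit of the Sham and Vehicle mice alone (adjusted p = 0.0596). The same held without LJP mouse 2 or 3 (adjusted p = 0.0558 and 0.056). The number of lower genes in this list was 1 to 8 over the fits that left out a mouse, and was 8 and 5 when Vehicle mouse 3 or 4 was left out.

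In the interneuron list 2 of 12 genes were lower (16.7%, near the 17.3% of all genes), and 4 without Vehicle mouse 1. The median was -0.36, or -0.19 without Vehicle mouse 2. These were Reln, the secreted guidance protein reelin, at 112, 109, 97.2 and 94.3 CPM in Sham and 50, 26.6, 66.2 and 56.8 CPM in Vehicle (-1.05 ± 0.21, adjusted p = 0.0024), and the fast potassium channel Kcnc1 (-0.60 ± 0.16, adjusted p = 0.00988). The peptide Sst was at 182, 177, 187 and 198 CPM in Sham and at 130, 59.5, 186 and 173 CPM in Vehicle, and the GABA-making enzyme Gad1 at 410, 446, 400 and 380 CPM and at 386, 132, 345 and 299 CPM. The groups overlapped in both, with Vehicle mouse 2 far below the rest, and neither passed the test (adjusted p = 0.172 and 0.116). Without Vehicle mouse 2, Sst was at -0.20 and Gad1 at -0.26 in place of -0.44 and -0.49. Medium spiny neurons also use Gad1.

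**Figure D3:**
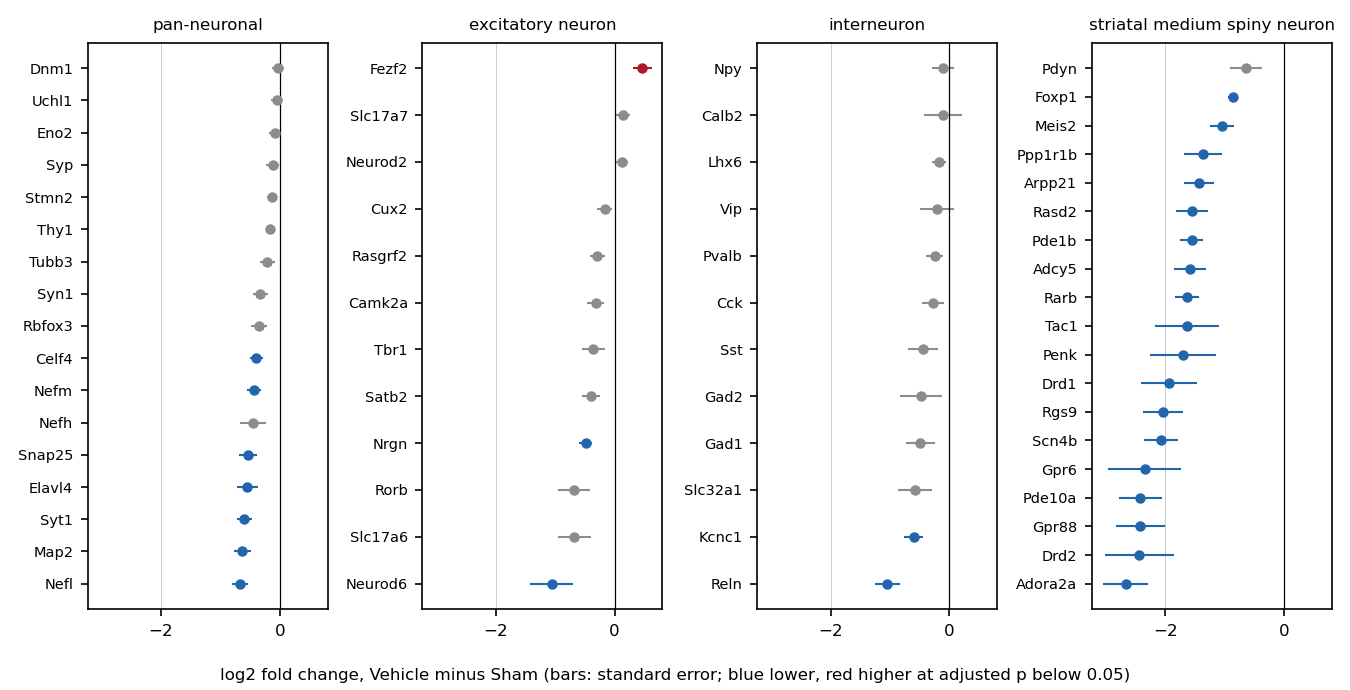
Each panel is 1 list of neuronal markers, with the log2 fold change (Vehicle minus Sham) of each gene on the x axis and its standard error as a bar. Blue points are lower and red points higher at an adjusted p below 0.05. The medium spiny neuron markers reach -2.67 (Adora2a), while most markers of the other lists lie within 1 of 0.

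Of 16 postsynaptic scaffold genes 13 were lower (81.2%), with a median of -0.73. Shank3, which ties receptors to actin, went from 559, 580, 549 and 573 CPM to 245, 234, 331 and 345 CPM (-0.97 ± 0.13, adjusted p = 0.000377). Lrrc7, another protein of the density, was at -1.09 ± 0.19 (adjusted p = 0.00146). The scaffold Dlg4, which codes for PSD-95, went from 1052, 1019, 1064 and 1049 CPM to 577, 442, 775 and 785 CPM (-0.70 ± 0.15, adjusted p = 0.00429). Vehicle mice 1 and 2 were the lowest in each of those given by mouse.

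Of 25 glutamate receptor subunit genes 16 were lower and 1 was higher (median -0.61), and none was higher without Sham mouse 2, 3 or 4 or Vehicle mouse 1 or 2. The metabotropic receptor Grm5 was at 224, 213, 201 and 180 CPM in Sham and at 96.1, 53.1, 124 and 126 CPM in Vehicle (-1.04 ± 0.21, adjusted p = 0.00246). Kainate receptor Grik2 was at -0.86 ± 0.15 and AMPA receptor Gria4 at -0.83 ± 0.16 (adjusted p = 0.00147 and 0.00224). The subunit that every NMDA receptor holds, Grin1, was at 735, 704, 735 and 749 CPM in Sham and 691, 371, 632 and 608 CPM in Vehicle and did not pass (-0.34, adjusted p = 0.102, and -0.19 without Vehicle mouse 2).

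Of 25 tested GABA and glycine receptor and transporter genes 14 were lower and none was higher (median -0.49). Gabra4, given above, was among them. Of 37 sodium and calcium channel genes 23 were lower and 2 higher (median -0.62). Scn1a, the sodium channel of fast interneurons, was at 159, 154, 159 and 160 CPM in Sham and at 78.9, 45.4, 119 and 108 CPM in Vehicle (-0.85 ± 0.22, adjusted p = 0.00911), and the calcium channel subunit Cacna2d3 was at -1.22 ± 0.21 (adjusted p = 0.00111). Each of these groups had more lower genes than the 17.3% of all genes, and few or no higher ones.

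Of 85 potassium channel genes 35 were lower (41.2%, against 17.3% of all genes) and 6 higher (7.06%, against 22.7%), with a median of -0.38, and 22 were lower without Sham mouse 1. Kcnd2, a channel of the A-type current in dendrites, fell by 1.23 ± 0.17 on the log2 scale (adjusted p = 0.000406). A member that rose was the 2-pore channel Kcnk6, from 5.13, 5.23, 6.69 and 4.46 CPM to 16.4, 24, 13 and 15.9 CPM (1.69 ± 0.20, adjusted p = 0.000153). Synaptic vesicle genes had 7 of 21 lower (33.3%, against 17.3% of all genes) and none higher (median -0.35, or -0.22 without Vehicle mouse 2), and the number lower was 5 without Sham mouse 1 but 15 and 11 when Vehicle mouse 3 or 4 was left out. Cplx2, which clamps vesicle fusion, had Sham values of 1899, 1895, 1902 and 1890 CPM and Vehicle values of 924, 662, 1258 and 1222 CPM (-0.90 ± 0.17, adjusted p = 0.00177).

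Of 15 genes that neuronal firing turns on 7 were lower (46.7%, against 17.3% of all genes) and none was higher (median -0.92). The number lower was 3 without Sham mouse 1 or Vehicle mouse 1, 4 without Sham mouse 3 or 4 and 9 without Vehicle mouse 3 or 4, and 1 was higher without Vehicle mouse 3. The list score was -1.60 and -1.87 in Vehicle mice 1 and 2 but -0.39 and -0.54 in mice 3 and 4. Egr1 was at 404, 328, 372 and 398 CPM in Sham and at 126, 154, 266 and 252 CPM in Vehicle (-0.91 ± 0.24, adjusted p = 0.00942). Arc, which acts at the synapse, was at 171, 166, 189 and 208 CPM in Sham and at 40.7, 27.5, 158 and 157 CPM in Vehicle (-0.94 ± 0.48, adjusted p = 0.133), and Npas4 was at 4.13 and 1.42 CPM in mice 1 and 2 but at 17.4 and 14.7 CPM in mice 3 and 4, against 13.9 to 16.3 CPM in Sham. The growth factor Bdnf was lower in all 4 (-0.86 ± 0.22, adjusted p = 0.0102). In 10 of the 15 genes every Vehicle mouse was under every Sham mouse, as in 18.8% of all genes, and the list scores were lowest in Vehicle mice 1 and 2.

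All 21 reactive astrocyte genes were higher (median 3.59, against 22.7% of all genes called higher), and all 21 were higher without Vehicle mouse 2 (median 3.11). Gfap, the intermediate filament of astrocytes, rose from 107, 155, 151 and 151 CPM to 1456, 2853, 1769 and 2187 CPM (3.87 ± 0.28, adjusted p = 1.54e-05). Vim, another such filament, rose from 37.6, 38, 38.5 and 40.3 CPM to 919, 2198, 578 and 849 CPM (4.88 ± 0.41). Serpina3n, a secreted protease inhibitor, rose from 11, 7.85, 9.86 and 10.3 CPM to 774, 668, 338 and 264 CPM (5.71 ± 0.40, adjusted p = 1.54e-05). The groups were far apart in all of these. Which cells of the hemisphere held these RNAs was not tested.

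The iron-binding protein Lcn2 rose from 0.519, 0.708, 0.658 and 0.259 CPM to 166, 107, 16.5 and 16.7 CPM (7.15 ± 0.91, adjusted p = 0.000228). It was several times higher in Vehicle mice 1 and 2 than in mice 3 and 4. The hyaluronan receptor Cd44 went from at most 2.08 CPM to 72, 64.1, 33.7 and 28.6 CPM (4.82 ± 0.39, adjusted p = 4.62e-05).

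Of 16 genes that mark astrocytes at rest 3 were higher (18.8%) and 4 lower (25%), near the 22.7% and 17.3% of all genes, with a median of 0.14 that was between 0.06 and 0.23 without Vehicle mouse 3 and 1. Aldh1l1, a folate enzyme, went from 59.3, 68.1, 61.1 and 67.1 CPM to 141, 168, 117 and 131 CPM (1.12 ± 0.11, adjusted p = 8.96e-05). The transcription factor Sox9 (0.74 ± 0.12) and the sodium pump subunit Atp1b2 (0.47 ± 0.08) rose as well. Slc1a2, the transporter that clears most glutamate, went down from 3204, 3004, 2994 and 2730 CPM to 1255, 1153, 2296 and 2356 CPM (-0.76 ± 0.21, adjusted p = 0.0121). The water channel Aqp4 overlapped between the groups (0.22 ± 0.20, adjusted p = 0.391). Without Vehicle mouse 1 the split was 5 higher and 1 lower, and 2 were lower without Sham mouse 2, 3 or 4.

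Of 14 oligodendrocyte genes 4 were higher (28.6%, against 22.7% of all genes) and 1 was lower (7.14%, against 17.3%, median -0.08, or -0.01 without Vehicle mouse 2). The fall, in Aspa, was lost without any of Sham mice 1 to 4 or Vehicle mice 1 and 2, while 3 and 2 genes were lower without Vehicle mice 3 and 4. The tight junction gene Cldn11 rose from 142, 169, 163 and 174 CPM to 291, 316, 324 and 313 CPM (0.94 ± 0.13, adjusted p = 0.000442). The myelin protein gene Mbp was at 3709, 3469, 2829 and 2924 CPM in Vehicle against 2230 to 2819 CPM in Sham (0.28 ± 0.12, adjusted p = 0.07), a gene not past the test. Of 9 precursor genes 1 was higher, the growth factor receptor Pdgfra (0.65 ± 0.20, adjusted p = 0.0215), which missed the threshold without Sham mouse 1 or 4 (adjusted p = 0.0502 and 0.0546) and was at 0.36 without Vehicle mouse 2. The precursor list had 2 higher genes without Vehicle mouse 1 or 2.

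Microglia, the resident phagocytes of the brain, were read from genes of the resting state and of the phagocytic state. Of 12 resting genes 8 were higher and none was lower (median 0.89), and 16 of 18 phagocytic genes were higher (median 2.32). Both counts were the same without Vehicle mouse 2 (medians 0.91 and 2.12). Csf1r, the receptor that microglia need to survive, was at 98.2, 102, 95.1 and 104 CPM in Sham and at 158, 271, 257 and 269 CPM (1.26 ± 0.19, adjusted p = 0.0006). P2ry12, the purine receptor of resting microglia, was at 22.1, 16, 20.5 and 16.4 CPM in Sham and at 8.98, 18.6, 24.3 and 30 CPM in Vehicle (0.12 ± 0.30, adjusted p = 0.768). Vehicle mouse 1 was the lowest of the Vehicle mice in both genes.

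The lipid genes Lpl and Apoe were the 2 phagocytic genes not called. The lysosomal protein Cd68 went from 4.73, 5.94, 6.47 and 6.01 CPM to 51.1, 87.1, 71.7 and 73.2 CPM (3.61 ± 0.32, adjusted p = 5.24e-05). The lipid receptor Trem2 went from 10.7, 11.6, 11 and 10.9 CPM to 21.5, 57.8, 48 and 59.8 CPM (2.08 ± 0.32, adjusted p = 0.00062). Spp1, which codes for osteopontin, went from 6.86, 10.4, 8.33 and 6.79 CPM to 325, 1888, 397 and 352 CPM (6.51 ± 0.95, adjusted p = 0.000477). Lgals3, a galectin of phagocytes, rose by 6.22 ± 0.52 (adjusted p = 4.65e-05). Macrophages use these genes as well as microglia.

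Levels of monocyte and macrophage markers differed between Vehicle mice, and the origin of the cells that held them was not tested. Of 13 monocyte and macrophage genes 11 had enough counts in the mice of the series to be tested. All 11 were higher (median 3.55), and 10 were without Vehicle mouse 2 (median 2.95). The other 2, Ly6c2 and Plac8, overlapped Sham, while edgeR with no filter on low counts called both higher (adjusted p = 0.0216 and 0.0139). Ly6c2, a surface protein of inflammatory monocytes, had 0, 0, 1 and 1 counts in Sham and 31, 19, 1 and 1 counts in Vehicle, and Plac8 had 1, 4, 1 and 2 counts and 30, 48, 1 and 12 counts. The chemokine receptor Ccr2 was at most 0.346 CPM in Sham and at 2.5, 5.03, 1.24 and 1.08 CPM in Vehicle (3.55 ± 0.94, adjusted p = 0.0104). Mrc1, a mannose receptor of macrophages at brain borders, was at 3.92, 5.56, 4.66 and 4.51 CPM in Sham and at 8.44, 54.8, 10.9 and 13.7 CPM in Vehicle (2.24 ± 0.51, adjusted p = 0.00486, and 1.23 without Vehicle mouse 2). Cd14, a receptor for bacterial lipids, rose by 3.99 ± 0.51. The list was highest in Vehicle mouse 2 and lowest in Vehicle mouse 3.

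Neutrophil genes had most of their counts in Vehicle mice 1 and 2, and 13 of the 15 on the list did not pass the filter on low counts. S100a8, an abundant neutrophil protein, had 2, 3, 2 and 1 counts in Sham and 1159, 278, 4 and 33 counts in Vehicle. Its partner S100a9 had 2, 2, 0 and 2 counts in Sham and 1368, 302, 3 and 27 counts in Vehicle. The chemokine receptor Cxcr2 had no count in any Sham mouse and 408, 146, 1 and 9 counts in Vehicle, at least 38.6-fold higher against a floor of 3 counts per library, or 13.9-fold without Vehicle mouse 1. Vehicle mouse 1 had the most counts of each and mouse 3 hardly differed from Sham. Of the 2 members tested, the growth factor receptor Csf3r rose from 4.79, 6.05, 6.03 and 6.43 CPM to 48.2, 38.2, 17.4 and 24.5 CPM (2.46 ± 0.34, adjusted p = 0.000338), and Mmp9, a gelatinase, was at 42.9, 35.9, 1.4 and 5.77 CPM against 0.881 to 1.53 CPM in Sham (4.11 ± 0.83, adjusted p = 0.00269), with Vehicle mouse 3 inside the Sham range. Microglia can express Csf3r too. When any 1 Sham mouse or Vehicle mouse 3 was left out, 6 genes of the list passed the filter in place of 2, and these 6 were called higher. Genes under the filter had few counts in Sham, so those added passed through the mice with tMCAO, and their calls add no support. Ly6g, which defines mature neutrophils, had 3, 4, 0 and 0 counts in Vehicle and none in Sham.

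Some markers of T and B cells were at or near 0, and others were not. Cd3e, a part of the T cell receptor complex, had 0, 0, 6 and 0 counts in Sham and 6, 13, 0 and 5 counts in Vehicle, and Ms4a1 of B cells had none in any mouse. The T cell receptor chain Trbc2 was between 3.16 and 4.44 CPM in Sham, and the immunoglobulin chain Ighm between 20.6 and 26.6 CPM. The co-receptor gene Cd4 was one of the most firmly lowered genes, at 22.5, 25.3, 22.3 and 19 CPM in Sham and 4.72, 1.85, 5.54 and 3.23 CPM in Vehicle (-2.54 ± 0.29, adjusted p = 0.00015). It was the 1 called gene of the 3 tested T and NK cell genes, of 15 on that list, and Cd3e was near 0 in Sham where Cd4 was highest. With Vehicle mouse 4 left out 2 were lower, and with Vehicle mouse 3 left out 1 was higher. Of 6 B cell genes 2 were tested and 1 was higher, which was lost without Sham mouse 1, and 1 was lower without Vehicle mouse 4. Globin genes of red blood cells were higher in Vehicle, all 5 tested erythroid genes being called, with Hbb-bs at 1.9, 2.45, 2.3 and 2.18 CPM in Sham and at 39.6, 22, 4.41 and 5.66 CPM in Vehicle (3.02 ± 0.60, adjusted p = 0.00242). Globin genes have near copies. As with neutrophils, Vehicle mice 1 and 2 were the highest, and the share of blood in these values was not tested.

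**Figure D4:**
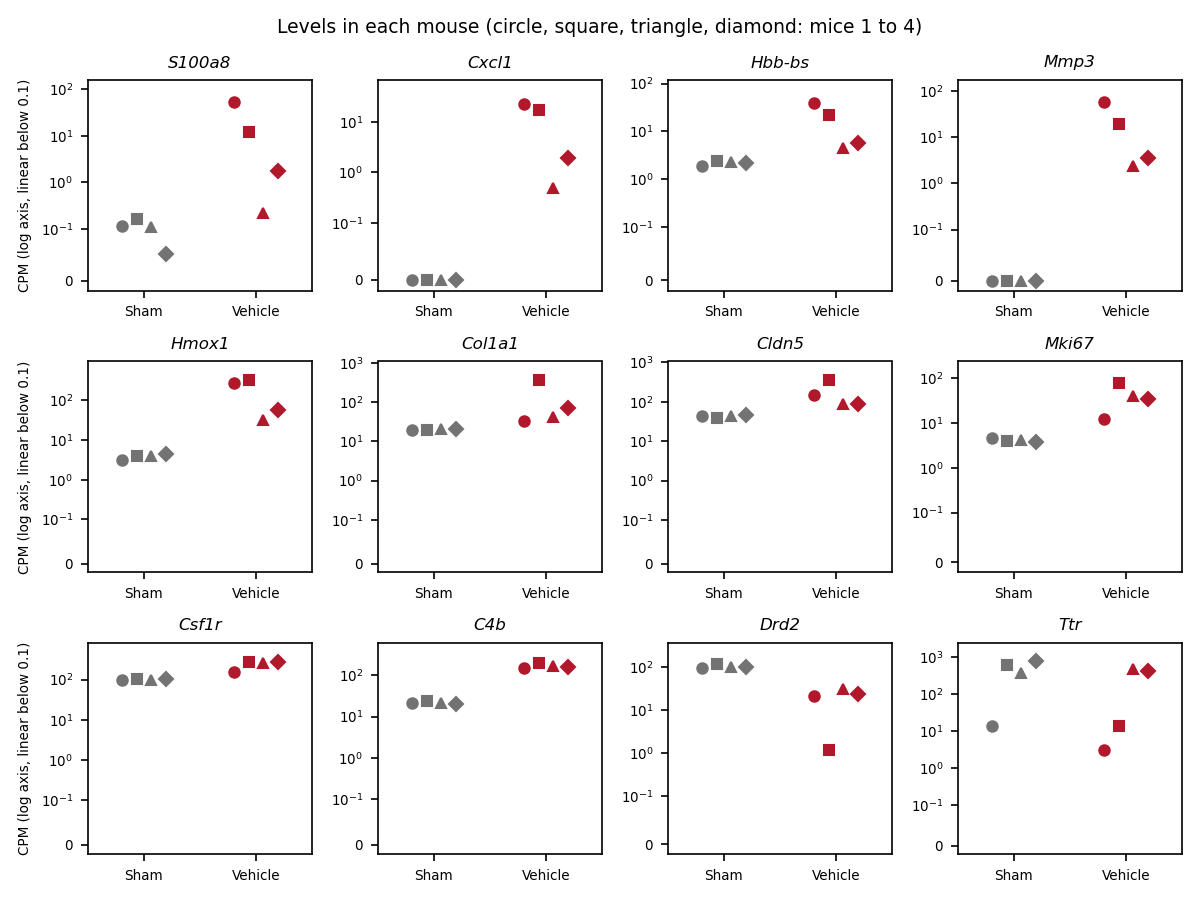
Each panel shows the CPM of 1 gene in every mouse on an axis that is linear below 0.1 and logarithmic above it, with a symbol for each mouse number. S100a8, Cxcl1, Hbb-bs, Mmp3 and Hmox1 are highest in Vehicle mice 1 and 2, Col1a1 and Cldn5 are highest in mouse 2, Mki67 and Csf1r are lowest in mouse 1, C4b is even, Drd2 is lowest in mouse 2, and Ttr is low in Sham mouse 1 and Vehicle mice 1 and 2.

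Vessel genes were highest in Vehicle mouse 2. Of 15 endothelial genes 9 were higher and none was lower (median 1.03), and 1 was lower without Vehicle mouse 3 or 4. Without Vehicle mouse 2 there were 8 higher with a median of 0.42, and without Sham mouse 2, 3 or 4 there were 7. The junction protein Cldn5 was at 43.1, 38.2, 43.3 and 46 CPM in Sham and at 150, 353, 89.7 and 89 CPM in Vehicle (2.00 ± 0.38, adjusted p = 0.00197). Pecam1, an adhesion protein between endothelial cells, went from 18.8, 18.1, 19.3 and 22.3 CPM to 161, 339, 32.1 and 59.3 CPM (2.91 ± 0.56, adjusted p = 0.00216). No Vehicle mouse fell within the Sham range of either gene.

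Genes of activated endothelium had 10 of 11 higher (median 3.64), and 8 without any 1 Sham mouse or Vehicle mouse 1 or 2. The median was 2.58 without Vehicle mouse 2. Selp, the selectin that catches leukocytes, had 3 counts over the 4 Sham mice and 1400 over the 4 Vehicle mice, a ratio of 437 with a 95% counting interval of 149 to 2124, or of 211 (71.9 to 1029) without Vehicle mouse 2. In Vehicle it was at 15.9, 39.1, 2.26 and 5.23 CPM. The adhesion molecule Icam1 went from 2.42, 2.4, 3.07 and 4.61 CPM to 31.9, 35.2, 10.4 and 12.6 CPM (2.85 ± 0.46, adjusted p = 0.000851). Vwf, which binds platelets, rose by 3.64 ± 0.48 (adjusted p = 0.000277).

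Of 12 pericyte and smooth muscle genes 4 were higher (33.3%, against 22.7% of all genes) and none was lower (median 0.30, or 0.10 and 0.49 without Vehicle mice 2 and 3), and 1 was lower without Vehicle mouse 2 or 3. Pdgfrb, the pericyte receptor, was at 30.4, 28, 31.1 and 29.4 CPM in Sham and 67.8, 179, 42.8 and 52.9 CPM in Vehicle (1.53 ± 0.37, adjusted p = 0.00651, and 0.87 without Vehicle mouse 2), while the contractile gene Acta2 overlapped (adjusted p = 0.694). Of 10 fibroblast genes 6 were higher, with a median of 2.00, or 0.98 without Vehicle mouse 2, and 1 was lower without Vehicle mouse 3. Collagen Col1a1 was at 18.9, 19.9, 20.1 and 21 CPM in Sham and at 32.5, 358, 41.9 and 72.1 CPM in Vehicle (2.66 ± 0.63, adjusted p = 0.00624, and 1.28 without Vehicle mouse 2), and Col3a1 at 4.06 to 5.49 CPM and at 47.4, 489, 20.3 and 70.9 CPM (5.07, and 3.30 without Vehicle mouse 2). Vehicle mouse 2 was the highest in each.

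Of 7 ependymal genes 4 were higher (57.1%, against 22.7% of all genes), and 3 without any 1 Sham mouse or Vehicle mouse 1 or 2. Among them was the cilia regulator Foxj1, at 10.8, 13.4, 15.3 and 19.3 CPM in Sham and 54.8, 42.5, 22.2 and 25.6 CPM in Vehicle (1.30 ± 0.27, adjusted p = 0.0034). None of the 9 choroid plexus genes was called by edgeR or by DESeq2 (median -0.96, and -0.61 to -0.58 without Sham mouse 4 or Vehicle mouse 1 or 2), and 0 had an unadjusted p below 0.05 with edgeR. Ttr, the thyroid hormone carrier of the choroid plexus, was at 13.4, 611, 375 and 806 CPM in Sham and at 2.99, 13.5, 465 and 428 CPM in Vehicle. It was low in Sham mouse 1 and in Vehicle mice 1 and 2, so the amount of choroid plexus marker differed within both groups, and its part in the other results was not tested.

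All 15 protease and plasminogen genes were higher (median 3.67), and 14 without Sham mouse 1, 2 or 3 or Vehicle mouse 1 or 2. The median was 2.99 without Vehicle mouse 2. Mmp3, the protease stromelysin, had no count in any Sham mouse and was at 58.8, 19.9, 2.42 and 3.61 CPM in Vehicle, at least 129-fold higher against the floor of 3 counts per library, or 52.6-fold without Vehicle mouse 1. Timp1, an inhibitor of such proteases that overlaps Syn1 on the other strand, rose from at most 1.33 CPM to 74.8, 103, 8.23 and 18.1 CPM (5.71 ± 0.78, adjusted p = 0.000338). Vehicle mice 1 and 2 carried the highest values of both.

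Of 18 matrix genes 14 were higher and 1 was lower (median 1.60, and 1.11 without Vehicle mouse 2). Tnc, which codes for tenascin C of the scar, went from 5.07, 3.71, 3.07 and 4.61 CPM to 104, 169, 31.9 and 31.1 CPM (4.35 ± 0.69, adjusted p = 0.000749). Col4a1 of the vessel basement membrane went from 41.8, 47.6, 46.2 and 45 CPM to 365, 996, 97.2 and 167 CPM (3.17 ± 0.58, adjusted p = 0.00167). The lower gene, named after its value was seen, was Bcan, a proteoglycan of neuronal matrix (-0.73 ± 0.23, adjusted p = 0.0229), and it was lost without Sham mouse 3 or Vehicle mouse 1, while 2 and 3 genes were lower without Vehicle mice 3 and 4.

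**Figure D5:**
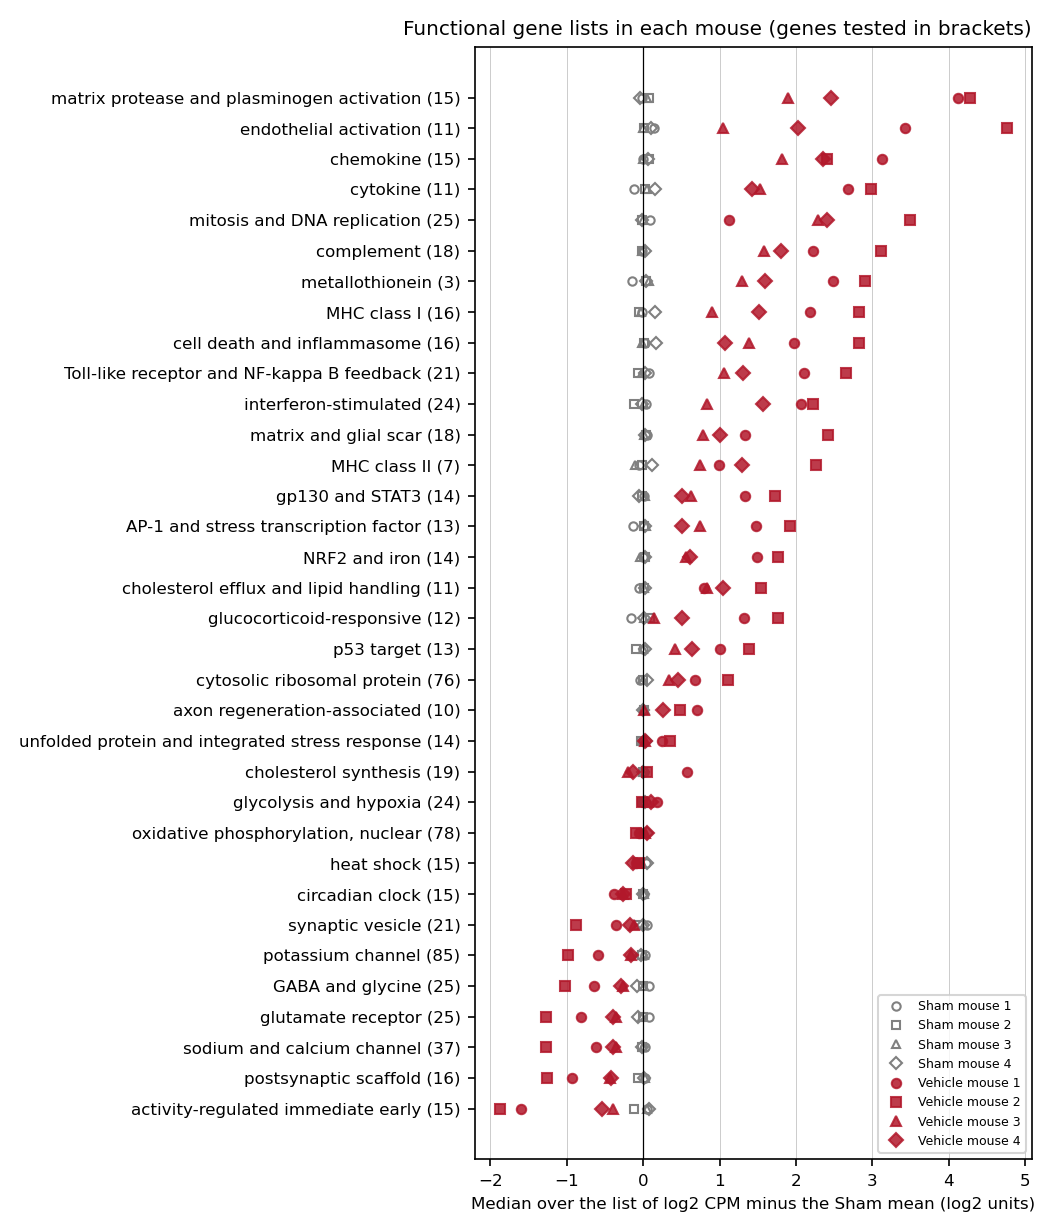
Each row is a list of genes of 1 function with the number tested, and each symbol is 1 mouse, placed at the median over the list of log2 CPM minus the Sham mean. Most inflammatory, matrix and mitotic lists lie right of Sham in all 4 Vehicle mice, receptor, channel and synaptic lists lie left, most so in Vehicle mouse 2, and oxidative phosphorylation, glycolysis and heat shock lists stay near 0.

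Of 11 tested cytokine genes 9 were higher and none lower (median 2.75). Csf3, the growth factor of neutrophils known as G-CSF, had 3 counts over the 4 Sham mice and 285 over the Vehicle mice, a ratio of 89.1 with a 95% counting interval of 30.2 to 434. It was at 2.41, 4.77, 3.98 and 2.53 CPM in Vehicle, an even level across the mice, unlike S100a8. Clcf1, of the interleukin 6 family, rose from 1.27, 0.163, 0.767 and 1.24 CPM to 11.5, 19.2, 10.1 and 8.94 CPM (3.85 ± 0.43, adjusted p = 0.000122). Csf1, a growth factor of microglia, rose by 1.84 ± 0.21 (adjusted p = 0.00014).

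The cytokines Il1b, Tnf and Il6 did not pass the filter on low counts. Il1b had 0, 2, 4 and 4 counts in Sham and 96, 58, 5 and 12 counts in Vehicle. Tnf had 0, 1, 4 and 0 counts in Sham and 32, 15, 21 and 9 counts in Vehicle, and Il6 had 0, 1, 0 and 0 counts and 52, 16, 3 and 1 counts. The groups did not overlap in counts for Il1b and Tnf and met at 1 count for Il6. With no filter on low counts edgeR called all of them higher, at adjusted p of 0.00314 for Il1b, 0.00196 for Tnf and 0.00523 for Il6.

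Of 15 tested chemokine genes 10 were higher and 1 was lower (median 3.56), with 2 lower without Vehicle mouse 4. Cxcl1, which draws neutrophils, had no count in Sham and was at 22.1, 17.1, 0.484 and 1.94 CPM in Vehicle, at least 63.5-fold higher against the floor, or 39.7-fold without Vehicle mouse 1. Ccl2, which draws monocytes, was at 0.115, 0.763, 0.274 and 0.466 CPM in Sham and at 19.5, 11.8, 1.99 and 1.67 CPM in Vehicle (4.41 ± 0.85, adjusted p = 0.00217). Cxcl16, by contrast, was even across Vehicle at 14.4, 20.6, 15 and 12.7 CPM against at most 1.55 CPM in Sham (3.88 ± 0.41, adjusted p = 0.000102). The lower gene was Cx3cl1, the neuronal ligand of the microglial receptor Cx3cr1 (-0.95 ± 0.25, adjusted p = 0.0112), named after its value was seen. The receptor itself rose from 42.9, 40.3, 40 and 38.7 CPM to 55.4, 67, 99.4 and 104 CPM (1.01 ± 0.22, adjusted p = 0.00387).

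Complement, the cascade that tags cells for uptake, had 15 of 18 genes higher and none lower (median 2.40). C3, on which its pathways meet, went from 1.21, 1.25, 1.21 and 1.71 CPM to 49.5, 39.1, 9.26 and 12.1 CPM (4.35 ± 0.58, adjusted p = 0.000288). C1qa, which starts the classical pathway, went from 34.5, 36.7, 39.2 and 38.9 CPM to 171, 348, 238 and 252 CPM (2.76 ± 0.28, adjusted p = 9.06e-05). The receptors C3ar1 and C5ar1 rose by 4.28 ± 0.37 and 5.16 ± 0.47. C3 was higher in Vehicle mice 1 and 2 than in mice 3 and 4.

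Of 21 genes of Toll-like receptors and NF-kappa B feedback 19 were higher (median 2.06). The receptor Tlr4 went from 1.56, 2.34, 1.15 and 1.5 CPM to 7.67, 11.7, 5.33 and 5.55 CPM (2.20 ± 0.33, adjusted p = 0.000593). Bcl3, a nuclear partner of NF-kappa B, went from at most 0.415 CPM to 22.1, 29.2, 9.85 and 8.68 CPM (5.60 ± 0.52, adjusted p = 5.89e-05). Nfkbia, the inhibitor that NF-kappa B itself induces, was at 23.9 to 26 CPM in Sham and at 108, 160, 29.3 and 48.5 CPM in Vehicle (1.78 ± 0.41, adjusted p = 0.00534). Vehicle mouse 3 was only just above Sham for Nfkbia.

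Of 14 genes of the gp130 and STAT3 pathway 9 were higher (median 1.24). Socs3, its feedback inhibitor, rose from 4.73, 5.5, 5.04 and 4.77 CPM to 174, 246, 29.3 and 53.8 CPM (4.65 ± 0.61, adjusted p = 0.000259), and Stat3 from 52.1, 59.6, 57.4 and 54.2 CPM to 294, 256, 111 and 112 CPM (1.79 ± 0.29, adjusted p = 0.000796). Both were highest in Vehicle mice 1 and 2. Of 24 interferon-stimulated genes 23 were higher (median 1.92), with 19 without Vehicle mouse 2 and 18 without Sham mouse 2 or Vehicle mouse 1. Ifitm3, a restriction factor at membranes, went from 5.07, 5.18, 5.32 and 7.26 CPM to 62.5, 124, 22.9 and 32.3 CPM (3.41 ± 0.49, adjusted p = 0.000467). Ifit1 overlapped, at 1.04 to 3.01 CPM in Sham and 9.53, 10.2, 2.21 and 5.39 CPM in Vehicle (1.62 ± 0.54, adjusted p = 0.031), and missed the threshold without Sham mouse 1, 2 or 4 or Vehicle mouse 1 or 2, at adjusted p between 0.0615 and 0.084.

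All 16 genes of MHC class I presentation were higher (median 2.12), also without Vehicle mouse 2. H2-K1, a heavy chain with close relatives in the H2 family, went from 31.4, 31, 33.9 and 35.9 CPM to 136, 250, 75.1 and 111 CPM (2.12 ± 0.34, adjusted p = 0.000784), and the light chain B2m from 39, 39.6, 38.7 and 37.9 CPM to 73.9, 162, 78.5 and 109 CPM (1.45 ± 0.29, adjusted p = 0.00251). Of 7 class II genes 4 were higher (median 1.46), and 3 without Vehicle mouse 2. The class II chain H2-Ab1 was at 1.42 to 2.49 CPM in Sham and at 6.26, 14.7, 4.2 and 7.76 CPM in Vehicle (2.19 ± 0.46, adjusted p = 0.00342). The groups did not overlap in these 3 genes.

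Of 14 genes of the oxidative stress factor NRF2 and of iron handling 12 were higher and none lower (median 1.20). Hmox1, the enzyme that breaks down heme, was at 3.17, 3.87, 3.95 and 4.41 CPM in Sham and at 273, 315, 32.1 and 58 CPM in Vehicle (5.46 ± 0.76, adjusted p = 0.000376). The ferritin chains Ftl1 and Fth1 rose by 2.15 ± 0.30 and 1.27 ± 0.21, Ftl1 from 221 to 264 CPM in Sham to 986, 1863, 692 and 795 CPM. All 3 metallothioneins, which bind zinc, were higher, with Mt2 at 45.1, 52.2, 54.9 and 51 CPM in Sham and at 494, 747, 151 and 221 CPM in Vehicle (2.99 ± 0.41, adjusted p = 0.000369). Vehicle mice 1 and 2 had the highest values in each.

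Of 15 heat shock genes 5 were higher (33.3%, against 22.7% of all genes) and 6 lower (40%, against 17.3%), with a median of -0.13. The small chaperone Hspb1 rose from 7.38, 10.1, 9.97 and 9.17 CPM to 177, 153, 23.8 and 26.6 CPM (3.38 ± 0.60, adjusted p = 0.00137). Hspa1a, an inducible HSP70 with a near-identical copy in Hspa1b, rose from 9.34, 11.4, 12.9 and 13.3 CPM to 103, 178, 16.2 and 33.6 CPM (2.82 ± 0.56, adjusted p = 0.00261). The 5 higher genes were these 3 with the co-chaperone Bag3 and the small chaperone Cryab, and the 6 lower genes included the chaperones Hsph1 (-0.79 ± 0.17) and Hsp90aa1 (-0.31 ± 0.08), picked after their values were seen. Of 14 genes of the unfolded protein response 5 were higher (35.7%, against 22.7% of all genes) and 1 was lower (median 0.15), and 2 were higher when any 1 Sham mouse or Vehicle mouse 2 was left out, with none lower without Sham mouse 1 or 4. The chaperone Hspa5 overlapped, at 264 to 281 CPM in Sham and 260 to 307 CPM in Vehicle.

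Of 78 nuclear genes of oxidative phosphorylation 5 were higher and 6 lower (6.41% and 7.69%, against 22.7% and 17.3% of all genes), with a median of -0.01, and 0 to 8 were lower over the fits that left out a mouse, the fewest without Sham mouse 3. Of 24 genes of glycolysis and hypoxia 8 were higher (33.3%, against 22.7% of all genes) and 3 lower (12.5%, against 17.3%, median 0.04, or 0.10 without Vehicle mouse 2), and 5 were higher without Sham mouse 1, 2 or 3 or Vehicle mouse 1. Hk2, the inducible hexokinase, rose from 5.31, 5.67, 5.37 and 5.34 CPM to 21.1, 32.1, 18.4 and 20 CPM (2.08 ± 0.25, adjusted p = 0.000153). Slc16a3, which exports lactate, went from 3.52, 5.18, 4.93 and 4.09 CPM to 25.4, 14.4, 10.8 and 11.7 CPM (1.81 ± 0.31, adjusted p = 0.00127). The growth factor Vegfa was lower, at 75.6, 72.6, 75.1 and 77.4 CPM in Sham and at 40.3, 37.8, 53.4 and 55.4 CPM in Vehicle (-0.69 ± 0.13, adjusted p = 0.00211).

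All 25 genes of mitosis and DNA replication were higher (100%, against 22.7% of all genes, median 2.65). In 23 of them every Vehicle mouse was above every Sham mouse, as in 20.7% of all genes, and all 25 were higher also without Vehicle mouse 2 (median 2.02). The list score was 1.12, 3.50, 2.29 and 2.41 in Vehicle mice 1 to 4. Mki67, present in dividing cells, went from 4.56, 4.03, 4.16 and 3.68 CPM to 12.4, 77.6, 40.1 and 34.6 CPM (3.32 ± 0.52, adjusted p = 0.000731), and the helicase gene Mcm3 from 2.52 to 3.17 CPM to 18.3, 39.9, 15.2 and 15.8 CPM (2.94 ± 0.35, adjusted p = 0.000163). Vehicle mouse 1 had the lowest list score.

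Of 76 cytosolic ribosomal protein genes 75 were higher and none lower, by small amounts (median 0.67, and 71 higher with a median of 0.48 without Vehicle mouse 2). Without Sham mouse 1, 69 were higher. Rplp0, of the ribosomal stalk, went from 153, 157, 165 and 164 CPM to 423, 686, 289 and 321 CPM (1.43 ± 0.22, adjusted p = 0.000742), and Rps28 rose by 0.89 ± 0.13 (adjusted p = 0.000504). These genes have processed copies in the genome, so their counts depend on how shared reads were assigned.

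Of 13 tested AP-1 and stress transcription factors 10 were higher and none was lower (median 1.24). Atf3 went from 0.346, 1.31, 0.877 and 0.57 CPM to 16.8, 16.6, 7.54 and 5.93 CPM (3.91 ± 0.49, adjusted p = 0.000206), and Cebpd, a factor of acute inflammation, from 4.21, 5.61, 6.14 and 6.17 CPM to 154, 159, 30.6 and 48.2 CPM (4.14 ± 0.51, adjusted p = 0.000181). Of 13 p53 targets 10 were higher (median 0.92), among them the cell cycle inhibitor Cdkn1a, from 18.3, 15.3, 16.9 and 15.4 CPM to 137, 178, 45.5 and 42.6 CPM (2.61 ± 0.41, adjusted p = 0.000775). Vehicle mice 1 and 2 were above mice 3 and 4 in all 3.

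Of 16 genes of cell death and the inflammasome 15 were higher and 1 was lower (median 2.11). The adaptor Pycard, which joins inflammasome sensors to caspase 1, went from 1.61, 1.42, 1.32 and 1.71 CPM to 13.5, 16.2, 11.2 and 9.86 CPM (3.07 ± 0.33, adjusted p = 0.000113). Gsdmd, which forms the pore of pyroptosis, went from 1.96, 2.18, 1.86 and 2.54 CPM to 7.44, 12.3, 6.08 and 5.39 CPM (1.87 ± 0.29, adjusted p = 0.000725). The lower gene, named after its value was seen, was the survival gene Bcl2 (-0.45 ± 0.13, adjusted p = 0.0158).

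Of 11 genes of cholesterol efflux and lipid handling 8 were higher (median 1.09), and 1 was lower without Vehicle mouse 3. Plin2, which coats lipid droplets, went from 4.9, 4.96, 4.71 and 5.75 CPM to 151, 243, 52.2 and 59.7 CPM (4.63 ± 0.62, adjusted p = 0.000307), and the scavenger receptor Msr1 from at most 0.603 CPM to 34, 51.4, 13.7 and 13.4 CPM (6.18 ± 0.73, adjusted p = 0.000151). Abca1, the cholesterol exporter, rose by 1.55 ± 0.16 (adjusted p = 9.61e-05). Of 19 genes of cholesterol synthesis and uptake 3 were higher and 2 lower, 15.8% and 10.5% against 22.7% and 17.3% of all genes (median 0.11), with 1 to 4 lower over the fits that left out a mouse, the most without Vehicle mouse 1.

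Of 15 tested circadian genes 7 were lower (46.7%, against 17.3% of all genes) and none was higher (median -0.27), with 1 higher without Vehicle mouse 4. Nr1d1, which codes for REV-ERB alpha and overlaps Thra, was at 168, 175, 183 and 185 CPM in Sham and at 128, 142, 146 and 135 CPM in Vehicle (-0.37 ± 0.07, adjusted p = 0.00162), while Per1 overlapped (-0.01 ± 0.18, adjusted p = 0.958). Of 12 glucocorticoid-responsive genes 9 were higher and 2 lower (median 1.05), with 7 higher without Vehicle mouse 2 (median 0.70) and 6 without Sham mouse 1. Fkbp5, a chaperone of the receptor that glucocorticoids induce, went from 50.2, 69.4, 59.1 and 56.7 CPM to 159, 243, 103 and 82.1 CPM (1.32 ± 0.27, adjusted p = 0.00313). The lower genes, named after their values were seen, were the glucocorticoid receptor Nr3c1 and the mineralocorticoid receptor Nr3c2.

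Of 10 tested genes tied to axon regeneration 4 were higher (40%, against 22.7% of all genes) and 2 lower (20%, against 17.3%). The median was 0.48, or 0.31 without Vehicle mouse 2 and 1.15 without Vehicle mouse 3, and between 0.93 and 1.08 without Vehicle mouse 4 or any 1 Sham mouse. In the fits without Vehicle mouse 3 or 4 or any 1 Sham mouse, 5 genes were higher. The filter on low counts was set anew in each fit, so the genes tested could differ. Sprr1a was the 1 member under it in the main fit. Lgals1, a galectin, went from 7.15, 5.5, 7.51 and 8.81 CPM to 43.4, 161, 64.4 and 82.3 CPM (3.60 ± 0.40, adjusted p = 0.000122), and the integrin Itga7 rose by 1.68 ± 0.18 (adjusted p = 0.000107). Sprr1a, too low for the filter, had 0, 1, 0 and 0 counts in Sham and 31, 21, 9 and 0 counts in Vehicle. The growth cone protein Gap43 was lower, at 190, 193, 178 and 176 CPM in Sham and at 155, 101, 143 and 139 CPM in Vehicle (-0.45 ± 0.11, adjusted p = 0.00874), and no Vehicle mouse reached the Sham range.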

How the data were processed

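Poly(A) RNA of the ischemic hemisphere of 12 mice was sequenced as paired reads of 150 bp. The authors deposited 1 table of raw read counts for 39756 genes, with no normalization. The submitters' processing notes name featureCounts, DESeq2 and the builds GRCm39 and mm10. Gene positions in the table equal those of RefSeq on GRCm38.p6 for all 17558 genes tested. The aligner and the strand setting of the counting are not given in the sources used here, so reads of genes that overlap could not be told apart.

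Genes were filtered with filterByExpr, scaled by TMM and tested with the quasi-likelihood test of edgeR 4.0.16 (R 4.3.3, limma 3.58.1) in 1 fit over the Sham, Vehicle and LJP mice, with Benjamini-Hochberg adjustment over 17558 genes. CPM uses the TMM-scaled library size. The alternatives were DESeq2 1.42.0, RLE size factors, library size alone, a filter of 1 CPM in 4 mice, no filter, the 8 compared mice alone, a replicate block, stricter thresholds and each mouse left out. The test was tested on simulated data with 200 changed genes of 17298, of which 172 were recovered with 11 false calls. The simulation gave all groups the same spread and changed these genes by a log2 size of 1 or 2. It therefore could not test unequal spread between groups, scaling when many genes change, or smaller changes. Figures were drawn with matplotlib 3.10.9 in Python 3.11.15.

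The comparison and the 54 gene lists, 20 of cell types and 34 of functions, were chosen with earlier results of these data known. Genes named are the 12 higher and 12 lower protein-coding genes of smallest p among those past a log2 size of 1 whose groups did not overlap, the 5 largest changes in each direction at a mean of at least 1 CPM, the anchor genes of each list with up to 3 members of smallest p, and members too low to test. P-values rest on an estimate of spread shared by the Sham, Vehicle and LJP mice, and counting intervals and floors cover counting error alone. Some genes are not reported here by name but stay in the counts and medians.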

Additional observations from a re-analysis of the deposited data

Results flagged for a closer look

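For each named gene and each list score, the gap between the highest or lowest of the 4 mice of a group and its nearest neighbour was set against the range of the group. A share above the 95% critical value of Dixon for 4 samples marks a mouse that stands apart. Of 604 groups examined 42 passed, where chance gives about 1 in 20, or 30.2. Sham mouse 1 was the highest of its group with a share of 0.902 for Gphn. Sham mouse 1 was the lowest of its group with a share of 0.903 for Folr1, 0.919 for Gfap, 0.911 for Mbp, 0.919 for Mmp19, 0.833 for Prlr, 0.862 for the metallothionein list, 0.831 for the AP-1 and stress transcription factor list and 0.927 for the cholesterol efflux and lipid handling list. Sham mouse 2 was the highest of its group with a share of 0.85 for Ankk1, 0.898 for Drd2, 1.0 for Hmga2, 0.9 for Tlr2 and 0.879 for the monocyte and macrophage list. The share for Hmga2 rests on 0, 1, 0 and 0 counts in Sham, too few to set a mouse apart. Sham mouse 2 was the lowest of its group with a share of 0.991 for Camk2a, 0.875 for Fezf2, 0.928 for Rpl32, 0.875 for Scn1a, 0.917 for Selp, 0.875 for Slc17a7, 0.862 for the pan-neuronal list, 0.956 for the excitatory neuron list and 0.887 for the activity-regulated immediate early list. The share for Selp rests on 3 counts over the Sham mice, again too few. Sham mouse 4 was the highest of its group with a share of 0.937 for Aebp1, 0.89 for C3, 0.871 for Ifitm3, 0.882 for the fibroblast list, 0.955 for the complement list and 0.868 for the MHC class I list. Vehicle mouse 1 was the highest of its group with a share of 0.953 for Rn7s1 and 0.929 for Sqle. Vehicle mouse 1 was the lowest of its group with a share of 0.905 for Csf1r, 0.947 for Cspg4 and 0.889 for Olfml3. Vehicle mouse 2 was the highest of its group with a share of 0.844 for Abca1, 0.918 for Acta2, 0.939 for Pdgfra and 0.886 for Spp1. Vehicle mouse 2 was the lowest of its group with a share of 0.886 for Drd2, 0.875 for Fgf3, 0.902 for Kcnab1 and 0.894 for the pan-neuronal list.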

How the results depend on the processing

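Of 257 named genes tested, 214 kept their call and sign at the same threshold in every other fit that tested them, and 43 changed 1 of them in at least 1. Stricter thresholds were applied to the totals alone. In place of 7014 called genes (3982 higher, 3032 lower), the fit of the 8 compared mice alone gave 5234, of which 1981 were lower. An adjusted p below 0.01 left 3874 (2516 higher, 1358 lower), and a log2 size above 0.58 with an unadjusted p below 0.01 left 3807 (2685 higher, 1122 lower). Over the fits that left out 1 mouse, called genes numbered 5285 to 8200, with 3260 to 4527 higher and 2025 to 3673 lower. The fewest came without Sham mouse 1 and the most without Vehicle mouse 3.

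The mouse numbers did not pair the mice: deviations of same-numbered Sham and Vehicle mice correlated at -0.02, -0.043, 0.027 and 0.007. With a replicate block over the 8 mice, 3730 genes were called (2427 higher, 1303 lower). Acta2 was then at -0.02.

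Some values changed sign. The T and NK cell median, -0.48 in 3 genes, was 0.81 with DESeq2 and 0.91 with no filter, and the B cell median, 0.66 in 2 genes, was -0.77 at 1 CPM in 4 mice. The oxidative phosphorylation median was 0.07 with library size alone and 0.01 with no filter. With library size alone, Mog was at 0.00 and Per1 at 0.07. Over the fits that left out 1 mouse, the medians ranged from -0.03 to 0.02 for oxidative phosphorylation and from -0.09 (without Vehicle mouse 1) to 0.21 for cholesterol synthesis. Log2 fold changes ranged from -0.47 (without Vehicle mouse 2) to 0.37 for Acta2, from -0.02 to 0.07 for Hspa5, from -0.17 to 0.31 for Lck, from -0.17 to 0.02 for Mog, from -0.12 to 0.37 for P2ry12 and from -0.15 to 0.12 for Per1. The cause was not tested. Folds without 1 Vehicle mouse, for genes of 0 to 3 Sham counts, were added after seeing the data.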

Other observations

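Calls differed by gene type. Of 15065 protein-coding genes 25.3% were higher and 18.3% lower, against 6.82% and 11% of 2286 lncRNA genes. Of 14 tRNA genes 12 were lower and none was higher. Among them, singled out after the values were seen, TrnG was at 30.9, 25.6, 26.7 and 30.6 CPM in Sham and at 14, 14, 17.4 and 19.9 CPM in Vehicle (-0.80 on the log2 scale, adjusted p = 0.00109, edgeR). TrnE was at -0.77 and TrnR at -1.47. The libraries were made from poly(A) RNA, and how fully they hold tRNA was not tested.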
